A study of Mus musculus with 8 samples.

Results

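Gusb and Hprt, 2 of the 15 genes that this array prints in 20 copies each, were followed across 8 mouse hearts. Each gene was taken as 1 noncontrol probe, identified in the scanner files by its probe name (CUST_3_PI419532418, accession NM_010368.1, for Gusb; CUST_4_PI419532418, accession NM_013556.2, for Hprt), out of 60915 probes considered. All hearts came from wild type C57BL/6J males aged 8 to 10 weeks and weighing 24 to 26 g, for which the labels give no transgene. Whether that age and weight are those at surgery or at harvest is not stated here. In 4 mice the descending aorta was tied over a 26-gauge needle, so that the heart works against a raised pressure, and 4 mice had sham surgery. RNA was taken 4 weeks after surgery, amplified by random priming without 3′ bias and labelled with Cy3, with 1 μg of labelled RNA on each array. The series concerns an ultraconserved transcript in banding-induced hypertrophy, and the comparison of banded with sham hearts asks here whether the mRNA of a lysosomal and of a purine salvage enzyme differs between them.

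Gusb encodes beta-glucuronidase, a lysosomal hydrolase that removes glucuronic acid from the ends of glycosaminoglycan chains, and its loss in mouse and human causes a storage disease (mucopolysaccharidosis type VII). Hprt encodes hypoxanthine-guanine phosphoribosyltransferase, an X-linked enzyme that joins hypoxanthine or guanine to phosphoribosyl pyrophosphate and so recovers purines as IMP and GMP, a route that spares tissues with high ATP turnover the cost of new synthesis. Both genes are expressed in most tissues and are in common use as reference genes in RT-qPCR, which assumes that they do not move with the treatment.

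The RefSeq promoter windows of the genes (build GRCm38.p6, 250 bases before to 50 after the start) are shown to describe the sequence at their starts, side by side. Their shared pattern over the arrays was not particular to this pair of genes, and promoters of the others are not shown. They are printed in the direction of transcription, with every match to the motifs searched in capitals. The Gusb window is chr5:130003000-130003299 on the minus strand and the Hprt window chrX:52987828-52988127 on the plus strand.
Gusb promoter: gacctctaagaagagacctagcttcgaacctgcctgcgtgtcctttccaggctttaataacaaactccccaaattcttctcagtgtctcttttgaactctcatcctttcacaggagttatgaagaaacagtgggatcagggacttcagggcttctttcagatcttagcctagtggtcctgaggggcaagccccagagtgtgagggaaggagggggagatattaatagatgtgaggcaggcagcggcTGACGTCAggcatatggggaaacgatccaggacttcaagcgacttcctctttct
Hprt promoter: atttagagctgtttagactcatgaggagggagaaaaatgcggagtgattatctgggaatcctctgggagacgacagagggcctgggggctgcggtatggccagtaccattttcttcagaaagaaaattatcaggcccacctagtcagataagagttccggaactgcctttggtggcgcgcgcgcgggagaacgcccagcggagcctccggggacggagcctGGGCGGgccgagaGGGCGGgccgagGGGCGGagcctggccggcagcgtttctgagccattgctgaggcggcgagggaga

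Both strands were searched for 5 motifs, none of which contains another: the TATA box TATAAA, the CCAAT box CCAAT, the GC box GGGCGG, the cAMP response element TGACGTCA, and the E-box CACGTG, the core of the element known from many lysosomal genes. The Gusb window held 1 cAMP response element, whose first base lies 4 bases before the start, and no match to the other 4. The Hprt window held 3 GC boxes, beginning 29, 16 and 4 bases before the start, and no match to the other 4. Among 32851 windows of the same length, 1.79% held the cAMP response element, 35.7% the GC box, 13.6% the TATA box, 37.4% the CCAAT box and 7.15% the E-box. The Gusb window was 49.7% G and C and the Hprt window 61.0%, against a median of 52.7% over all windows. These matches describe letters in the windows, and the arrays carry no measurement of binding.

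The arrays lay on 1 slide in 2 rows of 4, read from the spot positions, with banded 1 and sham 2, 3 and 4 in row 1 and banded 2, 3 and 4 and sham 1 in row 2. Array brightness, as the 75th percentile of the processed signal, was 143 to 255 units, the share of probes well above background 52.1% to 63.1%, and no spot was saturated. Over 15117 bright probes, 4 pairs of neighbouring arrays (banded 1 and sham 2, sham 3 and 4, banded 2 and 3, banded 4 and sham 1) differed by 0.969 to 1.34 times the noise between copies of a gene, and the remaining 24 pairs by at least 2.61 times. The labels number each array as a separate mouse, yet 2 of these pairs cross the surgery groups. Banded 2 and 3, and sham 3 and 4, were therefore counted as 1 sample each, which leaves 3 samples a group. Where arrays of a pair within a compared group share their source, p-values over 8 arrays are too small and intervals too narrow. The 2 pairs that cross the surgery groups stay as separate samples on opposite sides, also with 3 samples a group. A shared source there would bring the surgery groups closer together, so surgery estimates could be too small and their p-values too large. Surgery and row were also unbalanced, with 1 banded and 3 sham arrays in row 1 and 3 banded and 1 sham in row 2. Any difference between rows therefore enters surgery estimates made without row in the model, and a level higher in row 2 raises them. Whether any pair shares its source was not tested.

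All 20 copies of both genes lay well above background on all 8 arrays. The local background around the copies was 19 to 22.25 units, and the dimmest Gusb copy on any array was at least 4.97 times as bright as the brightest of the 300 negative-probe spots of the same array. For Hprt that margin was at least 59.8 times. Copies agreed closely: their coefficient of variation on an array was 2.12% to 6.60% for Gusb and 3.11% to 4.43% for Hprt, after 2 of 160 Gusb copies and 10 of 160 Hprt copies marked as outliers by the scanner software were set aside. The copy farthest from its array was a Gusb copy on sham 4, at 2.26 times the median of the others, and a Gusb copy on banded 4 was at 0.587 times. The mean of the copies of a gene on 1 array therefore had a standard error of at most 0.0216 on the log2 scale.

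The Gusb level, as log2 processed signal minus log2 of the array 75th percentile, was 2.55, 3.13, 3.17 and 3.0 in banded 1 to 4. It was 2.99, 2.52, 2.29 and 2.21 in sham 1 to 4. Banded 2 and 3 were the highest arrays and sham 3 and 4 the lowest, but banded 1 lay beside sham 2 and sham 1 beside banded 4, so the surgery groups overlapped. With close arrays counted once, the mean Gusb level of banded hearts was 2.90 ± 0.32 (SD, n = 3) and that of sham hearts 2.59 ± 0.38 (SD, n = 3). The difference of 0.31 (SE 0.26) corresponds to a ratio of 1.24 with a 95% interval from 0.815 to 1.90, and it did not pass the threshold (limma adjusted p = 0.995 over all tested probes). The estimate was higher than that of Gusb in 10.9% of tested probes.

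The Hprt level on the same scale was 6.06, 6.59, 6.69 and 6.62 in banded 1 to 4. It was 6.66, 6.03, 6.19 and 6.10 in sham 1 to 4. Here banded 1 was apart from the other banded arrays and sham 1 apart from the other sham arrays, each among the values of the other group. With close arrays counted once, the mean Hprt level of banded hearts was 6.44 ± 0.33 (SD, n = 3) and that of sham hearts 6.28 ± 0.34 (SD, n = 3). The difference was 0.17 (SE 0.26), a ratio of 1.12 with a 95% interval from 0.742 to 1.69, and it did not pass the threshold (limma adjusted p = 0.995). In 25.7% of tested probes the estimate was higher.

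**Figure D1:**
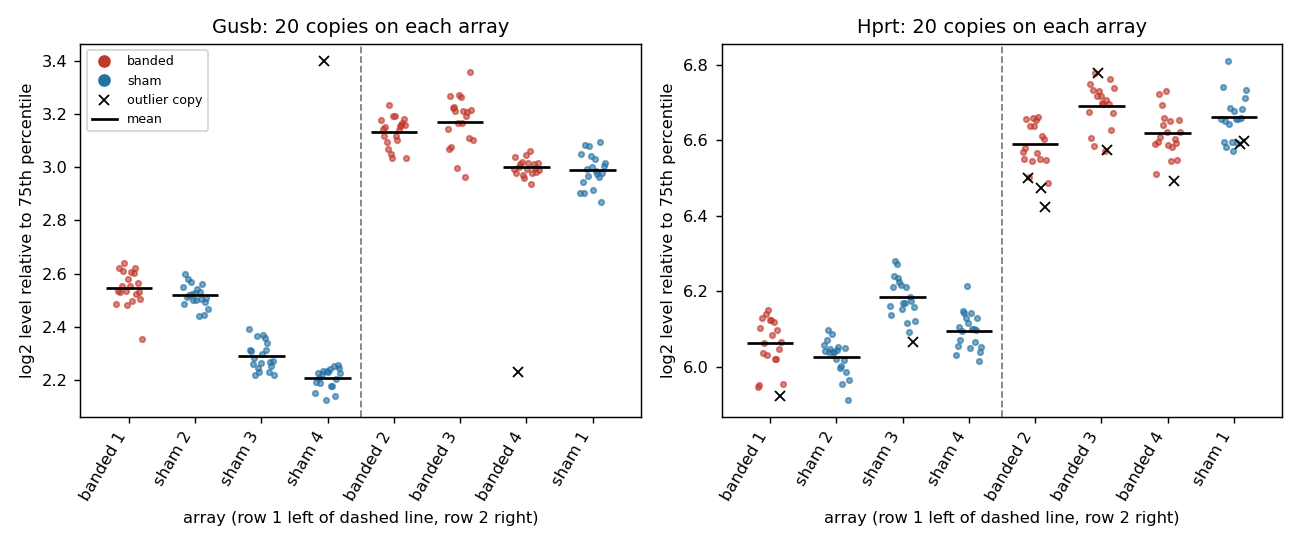
Log2 level over the array 75th percentile (vertical axis) of every copy of Gusb (left) and Hprt (right) on each array (horizontal axis), with row 1 left and row 2 right of the dashed line. Red is banded, blue sham, bars are means of unflagged copies and crosses are copies marked as outliers; for both genes the 4 arrays of row 2 lie above the 4 of row 1, whichever surgery they are labelled with.

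In the comparison of surgery groups, 0 of 35786 probes passed the threshold in either direction (0% called), with 726 at an unadjusted p under 0.05 (limma). There were thus no calls against which to set either gene. With all 8 arrays counted separately the estimates were 0.46 for Gusb (SE 0.22) and 0.25 for Hprt (SE 0.20), and the limma adjusted p was 0.586 and 0.629. That fit also called 0 probes, with 2533 at an unadjusted p under 0.05. With the slide row in the model, Gusb was at 0.16 (95% interval −0.16 to 0.48 on the log2 scale, limma adjusted p = 0.775) and Hprt at −0.03 (−0.32 to 0.25, limma adjusted p = 0.956). In fold terms those intervals run from 0.894 to 1.40 for Gusb and from 0.802 to 1.19 for Hprt. The fit with row also counts all 8 arrays separately. Its intervals are too narrow where arrays of a pair within a surgery group share their source. RNA from whole hearts was measured, so fewer cells of a type and less RNA per cell cannot be told apart.

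**Figure D2:**
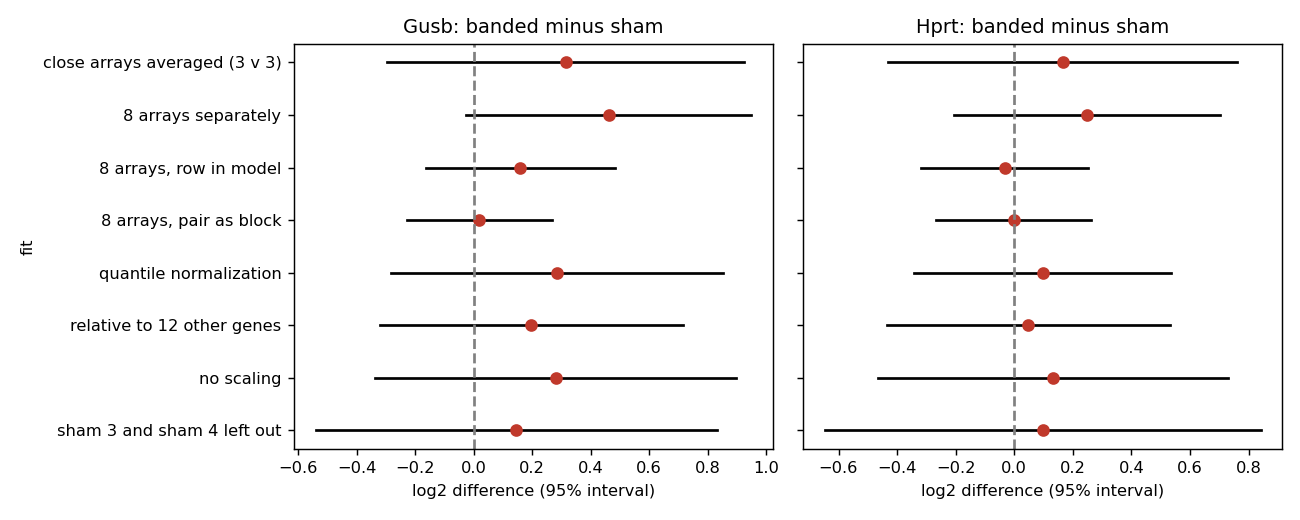
Banded minus sham difference in log2 level (horizontal axis, point with its 95% limma interval) of Gusb (left) and Hprt (right) under 8 fits (vertical axis). All 16 intervals include 0, the Gusb estimates run from 0.02 to 0.46 and the Hprt estimates from −0.03 to 0.25. The 0.02 is from the fit with the pair as a block. That fit rests on pairs picked for small differences and bears on no surgery effect.

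The 4 close pairs were picked for their small differences over bright probes, so small differences of Gusb and Hprt within them are a description and bear on no surgery effect. Banded 1 minus sham 2 was 0.03 for Gusb and 0.04 for Hprt, and banded 4 minus sham 1 was 0.01 for Gusb and −0.04 for Hprt, all in log2 units. The standard errors of these differences from the copies alone were 0.0157 to 0.0197. With the pair as a block, the surgery difference was 0.02 for Gusb (limma adjusted p = 0.9996) and −0.002 for Hprt (the same adjusted p). Within the pairs of 1 surgery group, sham 3 exceeded sham 4 by 0.08 for Gusb and 0.09 for Hprt, and banded 2 was below banded 3 by 0.04 and 0.10.

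Slide row ordered both genes. Every array of row 2 was above every array of row 1: Gusb ran from 2.21 to 2.55 in row 1 and from 2.99 to 3.17 in row 2, and Hprt from 6.03 to 6.19 and from 6.59 to 6.69. With each close pair counted once, Gusb was 1.61 times as high in row 2 (log2 difference 0.68, SE 0.23, limma adjusted p = 0.161, n = 2 pairs a row) and Hprt 1.46 times (0.55, SE 0.21, limma adjusted p = 0.225), so neither passed. Over all tested probes, 3.99% were called in that fit, 1004 higher (2.81%) and 423 lower (1.18%). With 8 arrays counted separately both genes passed, with limma adjusted p-values of 0.00485 and 0.00569. That fit called 19.7% of all probes, 12.6% higher and 7.11% lower in row 2. The row split was already known from earlier results of these data to order the arrays. Row p-values and call counts are therefore a description and no independent test. The row difference was 0.56 for Gusb and 0.57 for Hprt among banded arrays, and 0.65 and 0.56 among sham arrays, where 1 array stands on one side each time. With 1 array on a side, and that array close to one of the other surgery group, whether these row differences differ between surgery groups cannot be decided from these arrays. Within row 1, banded minus sham was 0.21 for Gusb and −0.04 for Hprt, and within row 2 it was 0.11 and −0.03. Without scaling it was 0.57 and 0.32 in row 1, and −0.06 and −0.20 in row 2. Each of these values again has 1 array on one side.

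The size of the row difference depended on the scaling, since the 75th percentile itself differed between rows: 187 to 255 units in row 1 and 143 to 178 units in row 2. Without scaling, the processed signal of Gusb (geometric mean of the copies) was 1488 in banded 1, 1180 in sham 2, 912 in sham 3 and 939 in sham 4, all in row 1. In row 2 it was 1382 in banded 2, 1287 in banded 3, 1393 in banded 4 and 1410 in sham 1. Banded 1 was thus the highest array before scaling and the lowest of the banded arrays after it.

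For Hprt the unscaled signal was 17037 in banded 1, 13433 in sham 2, 13588 in sham 3 and 13902 in sham 4. It was 15167 in banded 2, 14778 in banded 3, 17115 in banded 4 and 17977 in sham 1. The rows then overlapped for both genes, the row difference was 0.30 for Gusb and 0.17 for Hprt on the log2 scale, and neither passed (limma adjusted p = 0.473 and 0.659). Banded 1 and sham 2 differed by 0.33 for Gusb and 0.34 for Hprt before scaling, a difference shared by both genes that the scaling took out. Without scaling the median tested probe was lower in row 2 by 0.39, as log2 difference −0.39, and the calls were 246 higher and 348 lower. Relative to that median, Gusb was 0.69 and Hprt 0.55 higher in row 2, as with the 75th percentile.

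**Figure D3:**
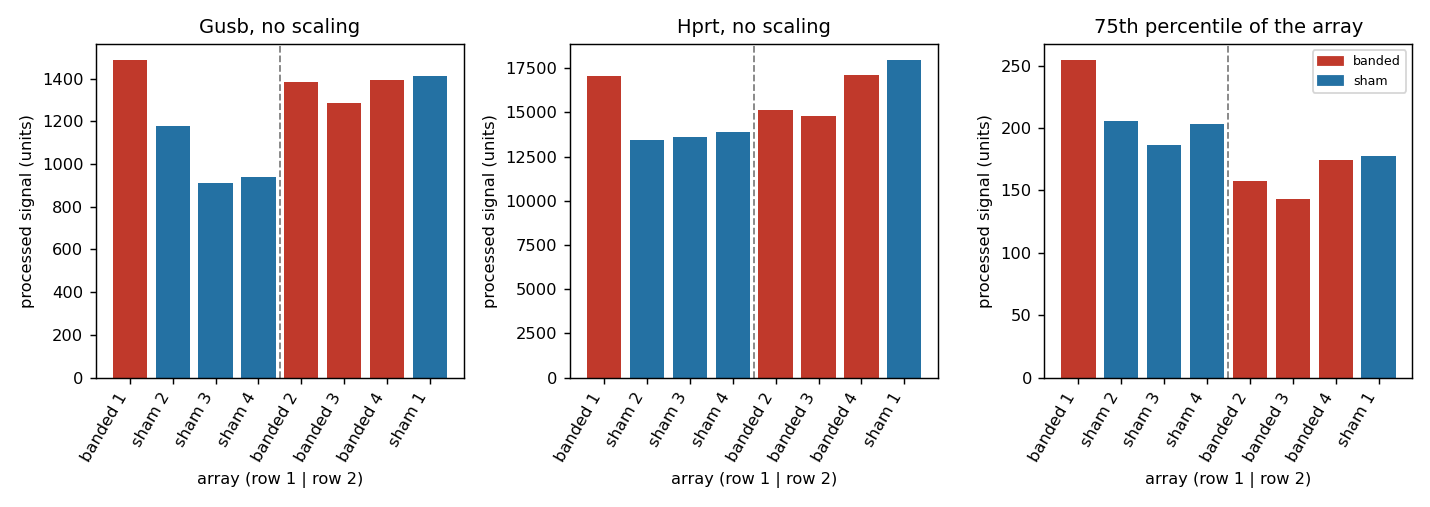
Processed signal without scaling (vertical axes, units, from 0) of Gusb, Hprt and the 75th percentile of all probes on each array (horizontal axis, row 1 left and row 2 right of the dashed line; red banded, blue sham). The gene signals of the rows overlap, while the 75th percentile is 187 to 255 units on the arrays of row 1 and 143 to 178 units on those of row 2.

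Other genes printed in 20 copies showed how far the pattern was shared. Of the 12 others bright enough to test, 9 had an estimate above 0 in row 2 against row 1, with a median log2 difference of 0.57, and over all tested probes the median was −0.01. With Gusb and Hprt among them, Gusb ranked in place 7 and Hprt in place 8 of 14 by that difference. With the pairs counted once 0 of the 12 passed (limma; 6 at an unadjusted p under 0.05). With 8 arrays separately 6 of the 12 passed, all higher in row 2, where 12.6% of all tested probes were called higher and 7.11% lower. Counts above 0 were 7 of 12 without scaling, 8 of 12 after quantile normalization and 6 of 12 relative to the mean of the 12 themselves. Between surgery groups 8 of the 12 estimates were above 0 and 0 passed (limma; 0 at an unadjusted p under 0.05), with a median of 0.17 against 0.01 for all tested probes.

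The likeness of patterns was measured by Pearson's r over the 8 arrays, which share the row and pair structure, and is given as a description. For Gusb the genes most alike were Rpl13a, a ribosomal protein (r = 0.952), Ppia, a prolyl isomerase (0.921), and Hprt (0.904). For Hprt they were Tuba1b, an alpha-tubulin (0.997), Ppia (0.996) and Rpl13a (0.980). Without scaling, r was lower, at 0.864 for Gusb with Rpl13a and 0.815 with Ppia. For Hprt it was then 0.832 with Tuba1b, 0.915 with Ppia and 0.791 with Rpl13a. Relative to the 75th percentile the gene least alike was Gk, glycerol kinase, for both, with r = −0.739 for Gusb and −0.705 for Hprt. Without scaling these values were −0.193 and 0.033. Among all tested probes, 5.41% had r over 0.9 with Gusb and 8.79% with Hprt, the closest being ASMM10P025323 (0.998) and ASMM10P040123 (0.999), to which no gene name is given here. Between Gusb and Hprt, r was 0.904 with scaling and 0.797 without.

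**Figure D4:**
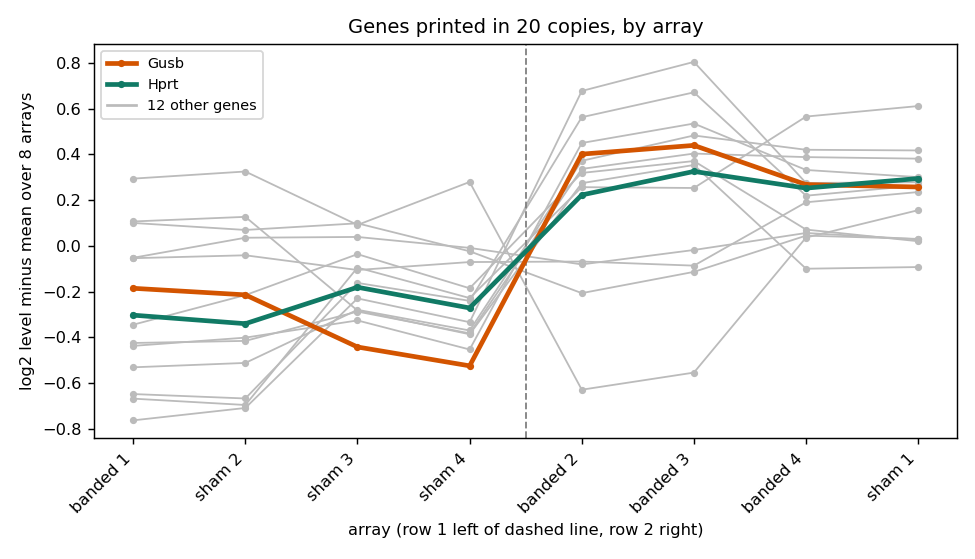
Log2 level of each of the 14 testable genes minus its mean over the 8 arrays (vertical axis) on each array (horizontal axis, row 1 left and row 2 right of the dashed line). Gusb (orange) and Hprt (green) are higher in row 2 than in row 1, as are most of the 12 others (grey), and Gusb lies below Hprt on sham 3 and sham 4.

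Set against the mean of the 12 other testable genes in place of the 75th percentile, Hprt was the steadier of the 2 genes. Its log2 level on that scale was 0.97, 1.02, 1.05 and 1.03 in banded 1 to 4 and 1.06, 0.91, 0.94 and 0.92 in sham 1 to 4. The whole range was 0.157 log2 units, against 0.666 with the 75th percentile, and the range of Gusb was 0.537 and 0.965 on these scales. The surgery difference on that scale was 0.05 (SE 0.21) and the row difference 0.11 (SE 0.20), and the limma adjusted p was 1.00 and 0.689. When each of the 14 genes was set against the mean of the other 13, Hprt had the smallest range over the 8 arrays (0.158). Relative to the 75th percentile it ranked in place 4, after Nono (0.138), Tbp (0.307) and G6pd2 (0.341), so the order depends on the scale.

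Gusb relative to the same 12 genes was −2.55, −2.43, −2.47 and −2.59 in banded 1 to 4 and −2.61, −2.60, −2.96 and −2.97 in sham 1 to 4. Sham 3 and sham 4, a close pair, stood below the other 6 arrays, which ran from −2.61 to −2.43. The surgery difference on that scale was 0.20 (SE 0.22, limma adjusted p = 1.00) and the row difference 0.25 (SE 0.23, limma adjusted p = 0.434). With sham 3 and sham 4 left out, the surgery difference relative to the 75th percentile was 0.15 for Gusb and 0.10 for Hprt. They were left out after seeing the data, so the smaller Gusb difference follows from the choice.

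Array scaling cancels in the difference between both genes on 1 array. As the genes have different probes, the difference says nothing of which mRNA was more abundant, and only its change from array to array can be read. Log2 Gusb minus log2 Hprt was −3.52, −3.46, −3.52 and −3.62 in banded 1 to 4 and −3.67, −3.51, −3.90 and −3.89 in sham 1 to 4. The banded arrays lay close together, sham 2 lay among them, and sham 3 and sham 4 were lowest. With close arrays counted once the mean of banded hearts was −3.54 ± 0.07 (SD, n = 3) and that of sham hearts −3.69 ± 0.19 (SD, n = 3), a difference of 0.15 (exact permutation p = 0.3, two-sided, where 20 assignments allow no p below 0.1). With 8 arrays separately it was 0.21 (exact permutation p = 0.114 over 70 assignments, which allow 0.0286). Without sham 3 and sham 4 it was 0.05 (exact permutation p = 0.6 over 10 assignments). These 2 arrays are the lowest on this measure and were left out after seeing the data, so the smaller difference follows from the choice. The difference between rows was 0.14, row 2 minus row 1 (exact permutation p = 0.667 over 6 assignments of pairs, which allow no p below 0.333).

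**Figure D5:**
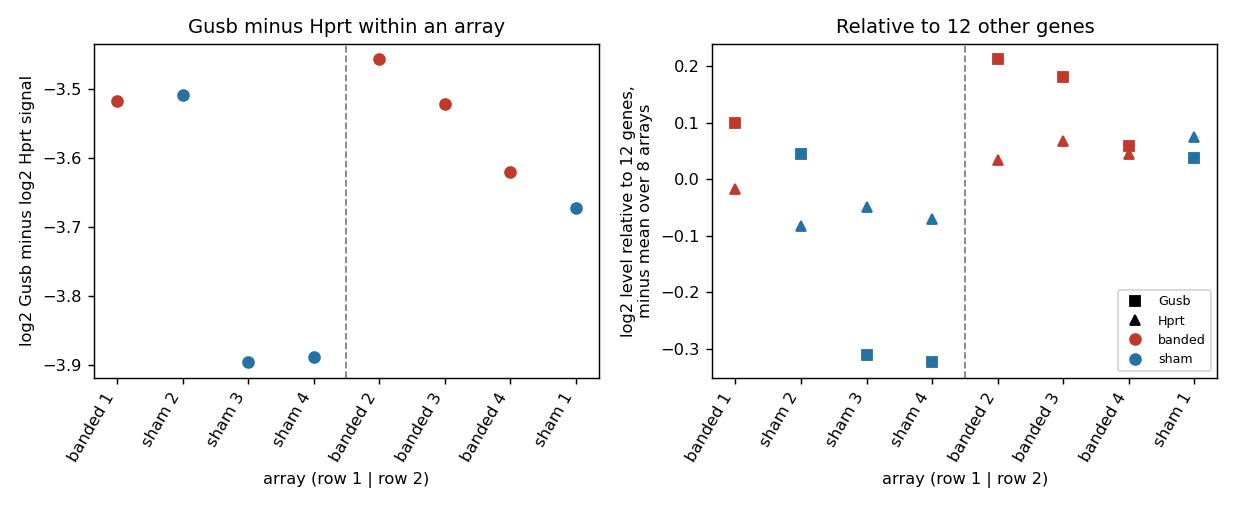
Left, log2 Gusb minus log2 Hprt processed signal on each array; right, log2 level of Gusb (squares) and Hprt (triangles) relative to the mean of 12 other genes, minus its mean over the 8 arrays (vertical axes), with arrays along the horizontal axis, red banded and blue sham. Sham 3 and sham 4 are lowest in the left panel, at −3.90 and −3.89, and lowest for Gusb in the right panel, while Hprt stays within a range of 0.157.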

How the data were processed

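RNA from 8 mouse hearts was measured on 8 one-colour Agilent arrays. Per the file headers, Agilent Feature Extraction wrote the deposited processed intensity of each spot after background subtraction and detrending, with no scaling between arrays; version 11.0.1.1 is named in the submitters' processing notes. Per the file headers, the deposited flags (0 or 1) mark saturated, outlier and well-above-background spots. The authors' deposited table holds log2 intensities, made by steps not given in the sources used here. Its columns had log2 slopes from 0.984 to 1.01 on the scanner values. Their medians were nearly equal (4.924 to 4.925), so that table is at a common level between arrays, unlike the scanner values.

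Log2 processed intensities were averaged over unflagged copies and centred on each array's 75th percentile over 60915 noncontrol probes; 15 negative probes were set aside. Probes entered the test when over 50% of their spots were flagged well above background on 4 or more arrays. limma 3.58.1 in R 4.3.3 gave two-sided p-values with Benjamini-Hochberg adjustment over 35786 probes, at a threshold of 0.05. Arrays of 1 group whose differences spread under 1.5 times spot noise were averaged first. Single values had two-sided exact permutation tests. Accessions were named through a RefSeq table (GRCm38.p6), which matched all 15 genes printed in 20 copies; probe positions are not given. The other probes are not paired with gene names in the files used here, so heart cell markers, hypertrophy genes and the lysosomal and purine lists were not analysed here. The genes described, the lists and the tests were chosen with earlier results of these data known. The named genes are those described, the 3 genes most like each of them over the 8 arrays and the 1 least like, and up to 2 probe identifiers. Normexp was run on median signals, since mean signals are not a column of the files. The fits were also run on simulated data with independent noise for each sample, without the row and pair structure of these arrays. How the fits behave under that structure was not tested. Python 3.11.15 with matplotlib 3.10.9 drew the figures.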

Additional observations from a re-analysis of the deposited data

Results flagged for a closer look

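Dixon's ratio, the gap of an end array to its neighbour over the whole range, was computed for Gusb, Hprt and their difference in both surgery groups. It passed its critical value in 1 of these 6 groups of 4 arrays. Chance alone gives about 1 in 20 for independent arrays. That rate need not hold here, since each group holds a close pair and the 6 groups share arrays. The array apart was banded 1, the lowest banded array for Hprt. Its log2 level relative to the 75th percentile was 6.06, against 6.59 for the next. Banded 1 had the highest 75th-percentile signal of the 8 arrays (255 units) and was the 1 banded array in row 1, and the part of either in the low value was not tested.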

How the results depend on the processing

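The surgery difference passed under no setting run for either gene. Hprt turned to −0.033 with the slide row in the model and to −0.0024 with the slide pair as a block, both with 8 arrays. The pair fit rests on pairs picked for small differences and bears on no surgery effect. Leaving out 1 array gave 0.26 to 0.52 for Gusb (the highest without sham 1, and 0.49 without banded 1), 0.04 (without sham 2) to 0.36 (without sham 1) for Hprt, and 0.14 to 0.24 (without sham 2) for Gusb minus Hprt. Without banded 4 Hprt was at 0.08, and without banded 1 at 0.35. Called probes stayed at 0 without any 1 array (510 to 1962 at an unadjusted p under 0.05, limma). There was 1 without scaling, the probe ASMM10P011458, and 1003 with banded 1 and sham 1 both left out, when row and surgery cannot be told apart and Gusb was at 0.69 and Hprt at 0.55 (limma adjusted p = 0.185 and 0.258). With the mouse number as a replicate block the differences were 0.46 for Gusb, 0.25 for Hprt and 0.21 for Gusb minus Hprt, with 0 probes called (limma; 1423 at an unadjusted p under 0.05). Same-numbered arrays correlated at −0.654 to −0.0528 in their deviations from group means. Each banded array lies in the other slide row from its same-numbered sham array, so these values cannot show whether the number pairs mice.

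The row difference passed with 8 arrays (0.68 for Gusb, 0.55 for Hprt) and with surgery in the model (0.60 and 0.56), which called 7035 and 4892 probes. Both fits test a split already known to order the arrays. Without 1 array, with pairs counted once, it was 0.66 to 0.70 for Gusb and 0.52 to 0.57 for Hprt, with 994 to 1351 probes called. The count was 490 with no filter, 594 without scaling and 2758 (498 higher, 2260 lower) relative to the 12 genes, where the median probe lay at −0.44. After quantile normalization Hprt was at 0.30 and Gusb at 0.61, and in the authors' table at 0.29 and 0.58. The cause of these changes was not tested. No scaling, the 12-gene scale and settings without 2 arrays were chosen after seeing the data. The number of arrays limits the precision.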
